A study of Mus musculus with 26 samples.

Results

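The Cyp4a genes encode cytochrome P450 enzymes that put a hydroxyl group on the omega end of fatty acids, and 6 of them were followed here through the mouse liver under 5 perturbations. They are Cyp4a10, Cyp4a14, Cyp4a31, Cyp4a32, Cyp4a12a and Cyp4a12b. Each was found in the gene table by its Ensembl identifier with the version removed, which gave 6 of 47643 genes. Read counts were available for all 6 in 26 RNA sequencing libraries of mouse liver, and the hepatocyte markers Alb, Apoa1, Ttr, Tf, Cps1, Ass1 and Fgb together stood at 49740 to 133000 CPM, counts scaled to a common library size, in every group.

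Omega-hydroxylation by CYP4A enzymes turns medium- and long-chain fatty acids into hydroxy acids that can be oxidised to dicarboxylic acids, and it also makes 20-HETE, a vasoactive product of arachidonic acid. Cyp4a10 and Cyp4a14 are standard targets of PPAR alpha, the nuclear receptor that senses fatty acids and is active in the fasted liver, and Cyp4a31 and Cyp4a32 are close relatives of Cyp4a10. Cyp4a12a is a male-biased gene whose liver expression depends on androgen and on the male pattern of growth hormone, and Cyp4a12b is its near copy.

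The libraries form 10 groups in 5 experiments, each with its own control. TCPOBOP, an agonist of the nuclear receptor CAR, was set against corn oil in C57BL/6J wild-type mice of 8 weeks fed ad libitum (2 libraries each), and the titles give 36 hours after injection while the source name gives 6 hours. Fxr-/- Shp-/- mice, which lack the bile acid receptor Fxr (Nr1h4) and its target Shp (Nr0b2), were set against wild type, all C57BL/6J of 12 weeks fed ad libitum (3 each). Livers 48 hours after partial hepatectomy (PHx) were set against 0 hour sham livers in C3H/HeN mice of 8 to 10 weeks fed ad libitum, with no genotype given (3 each). Isolated hepatocytes of C57BL/6J wild-type mice on a 60% high fat diet were set against hepatocytes from chow-fed mice, at 16 weeks and after a 10 hour fast (2 each). Mice of 10 to 12 weeks with floxed alleles of both Fxr and Shp (fl/fl Fxr fl/fl Shp, C57BL/6J, no Cre named) were fasted 8 to 10 hours and had eaten either chow or a diet with the bile acid cholic acid (3 each). Whole liver was used outside the hepatocyte experiment. In bulk samples, fewer cells of a type and less RNA per cell cannot be told apart. The labels do not say whether the libraries of a group came from separate mice, so p-values measure the spread between these libraries, which may be technical.

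Gene counts per library ran from 13949059 to 70367874, and 3 reads correspond to 0.0426 to 0.215 CPM. The knockout libraries held Nr0b2 at 0.558 to 1.59 CPM against 13.1 to 26.5 CPM in wild type, and Nr1h4 at 52.3 to 61.0 CPM against 113 to 151 CPM. Which part of Nr1h4 is deleted is not given in the sources used here, so its remaining reads do not check the Fxr label. Of the libraries labelled corn oil, number 2 held the CAR target Cyp2b10 at 9.94 CPM and number 1 at 3706 CPM, beside 3430 and 2988 CPM in those given TCPOBOP, so number 1 goes against its label. Sex is not in the labels, and Xist never passed 8 counts while Ddx3y, on the Y chromosome, never fell under 779.

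The genes lie in a cluster with other Cyp4a genes and pseudogenes on chromosome 4 of GRCm38, as the GENCODE M21 annotation gives them, and all 6 are protein-coding. In chromosome order they are Cyp4a12a (chr4:115299046-115332815), Cyp4a12b (chr4:115411624-115439034), Cyp4a14 (chr4:115486200-115496142), Cyp4a10 (chr4:115518264-115533649), Cyp4a31 (chr4:115563649-115579015) and Cyp4a32 (chr4:115600969-115621602). Cyp4a14 is on the minus strand and the others are on the plus strand. Coding sequences are 1524 bases in Cyp4a14, 1527 in the Cyp4a12 pair and 1530 in the rest. The stretch around the codon of the conserved cysteine that holds the heme iron is shown first because it is the catalytic signature of the family and because it shows which members a short read can tell apart. It is 90 coding bases long, is spliced across an intron, is written 5′ to 3′ on the coding strand, and capitals mark bases that differ from Cyp4a10.
Cyp4a10: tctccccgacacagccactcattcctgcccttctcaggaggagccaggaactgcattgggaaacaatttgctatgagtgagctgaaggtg
Cyp4a31: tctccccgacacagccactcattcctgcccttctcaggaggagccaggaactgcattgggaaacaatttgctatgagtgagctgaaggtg
Cyp4a32: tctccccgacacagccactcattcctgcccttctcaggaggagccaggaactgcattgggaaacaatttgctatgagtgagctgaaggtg
Cyp4a14: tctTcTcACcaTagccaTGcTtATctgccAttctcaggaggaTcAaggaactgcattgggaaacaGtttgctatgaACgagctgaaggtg
Cyp4a12a: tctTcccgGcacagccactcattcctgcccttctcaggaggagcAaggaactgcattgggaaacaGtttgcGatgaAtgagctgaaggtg
Cyp4a12b: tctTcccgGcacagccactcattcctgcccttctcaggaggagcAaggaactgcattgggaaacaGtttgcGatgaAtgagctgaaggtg

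Cyp4a10, Cyp4a31 and Cyp4a32 had 0 differing bases here, Cyp4a14 differed at 16 bases and the Cyp4a12 pair at the same 6. The exons of the stretch in Cyp4a10 reach from chr4:115529472 to 115532573, and those in Cyp4a12a from chr4:115328956 to 115331876. Over the whole coding sequence Cyp4a12a and Cyp4a12b were 98.5% identical (23 differing bases), Cyp4a10 and Cyp4a32 97.2% (43), Cyp4a10 and Cyp4a31 96.6% (52), and Cyp4a10 and Cyp4a14 75.3%. A stretch of 60 coding bases is shown because no coding window of that length held more differences between the Cyp4a12 genes. Untranslated bases were not searched. It covers coding positions 624 to 683, is spliced across an intron, and has capitals at the 4 bases that differ between the pair.
Cyp4a12a: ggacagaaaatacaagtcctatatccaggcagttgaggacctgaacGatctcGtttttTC
Cyp4a12b: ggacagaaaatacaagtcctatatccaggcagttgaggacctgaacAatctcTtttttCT

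Of all 100-base windows in the annotated transcripts, 100% were unique to the gene in Cyp4a14, 92.7% in Cyp4a31, 87.8% in Cyp4a10 and 81.8% in Cyp4a32, against 64.2% in Cyp4a12a and 63.8% in Cyp4a12b. At 50 bases the shares were 99.8% in Cyp4a14, 79.4% in Cyp4a31, 70.2% in Cyp4a10, 56.2% in Cyp4a32, 51.1% in Cyp4a12a and 50.6% in Cyp4a12b. The read length is not given in the sources used here, so single values of Cyp4a10, Cyp4a31 and Cyp4a32 and of the Cyp4a12 genes are uncertain by what the counting did with shared reads. Cyp4a14 is the member with the least shared sequence. The longest coding transcript of Cyp4a32 has 0 annotated untranslated bases, against 579 in Cyp4a10 and 979 in Cyp4a31. The unique share and the CPM of Cyp4a32 are therefore not directly comparable with those of the other members.

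Levels of Cyp4a10, Cyp4a14 and Cyp4a31 differed by orders of magnitude between the experiments, those of Cyp4a32 less so, and the order of the groups was another for the Cyp4a12 genes. These are levels in CPM over groups that differ in strain, age, feeding, tissue and experiment at once, which cannot be told apart, and no test is given. Reads of the C3H/HeN mice were counted on a genome of another strain, and the part of this in their levels was not tested. Cyp4a14 was highest in wild type of the knockout experiment at 5032 ± 1678 CPM (SD, n = 3) and lowest in sham C3H/HeN liver at 0.568 ± 0.269 CPM (SD, n = 3), where the libraries held 8, 24 and 22 reads. From high to low its group means ran from wild type through Fxr-/- Shp-/- (2608), cholic acid (1810), floxed chow (1334), high fat hepatocytes (1118), chow hepatocytes (851), corn oil (123), TCPOBOP (64.9) and hepatectomy (1.51) to sham. The ranges of neighbours in that order overlapped except between chow hepatocytes and corn oil and between TCPOBOP and hepatectomy.

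Cyp4a10 had a similar order, from 2624 ± 557 CPM in wild type (SD, n = 3) through floxed chow (1595), Fxr-/- Shp-/- (1492), chow hepatocytes (1402), high fat hepatocytes (781), cholic acid (716), corn oil (86.3), TCPOBOP (51.3) and hepatectomy (10.4) to 5.03 ± 1.42 CPM in sham (SD, n = 3). Neighbours did not overlap between wild type and floxed chow, chow and high fat hepatocytes, cholic acid and corn oil, and TCPOBOP and hepatectomy. Cyp4a31 went from 80.3 CPM in Fxr-/- Shp-/- through chow hepatocytes (60.8), wild type (56.5), floxed chow (54.4), cholic acid (48.5), high fat hepatocytes (13.9), TCPOBOP (5.56), corn oil (4.08) and hepatectomy (0.606) to 0.179 CPM in sham, where it had 6, 6 and 5 reads. Its neighbours separated between cholic acid and high fat, high fat and TCPOBOP, and corn oil and hepatectomy. Cyp4a32 varied least, from 102 CPM in chow hepatocytes through floxed chow (70.3), high fat hepatocytes (42.3), sham (31.0), cholic acid (29.3), wild type (28.5), hepatectomy (24.4), Fxr-/- Shp-/- (22.8) and TCPOBOP (17.3) to 10.7 CPM in corn oil. Chow hepatocytes stood apart from floxed chow, floxed chow from high fat, high fat from sham, and TCPOBOP from corn oil, and its other neighbours overlapped.

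By group mean Cyp4a12a was highest where Cyp4a10 and Cyp4a14 were lowest, in sham C3H/HeN liver at 487 ± 26.4 CPM (SD, n = 3). After sham its means were 374 in chow hepatocytes, 300.1 in corn oil, 269.7 in floxed chow, 184 after hepatectomy, 152 with TCPOBOP, 138 in wild type, 76.8 in high fat hepatocytes, 50.3 with cholic acid and 8.33 CPM in Fxr-/- Shp-/-. Neighbours in that order overlapped except wild type and high fat hepatocytes. Cyp4a12b ran from 139 CPM in chow hepatocytes through floxed chow (92.8), wild type (83.6), corn oil (58.6), cholic acid (44.0), TCPOBOP (42.9), high fat hepatocytes (21.5), sham (8.95) and hepatectomy (8.16) to 0.211 CPM in Fxr-/- Shp-/-. It separated between wild type and corn oil, TCPOBOP and high fat, high fat and sham, and hepatectomy and Fxr-/- Shp-/-. Scaled to exon length, the leading member by mean CPM per kilobase was Cyp4a14 in wild type (1935) and Fxr-/- Shp-/- (1003), Cyp4a10 in chow hepatocytes (665) and floxed chow (756), and Cyp4a12a in corn oil (124) and sham (201).

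**Figure D1:**
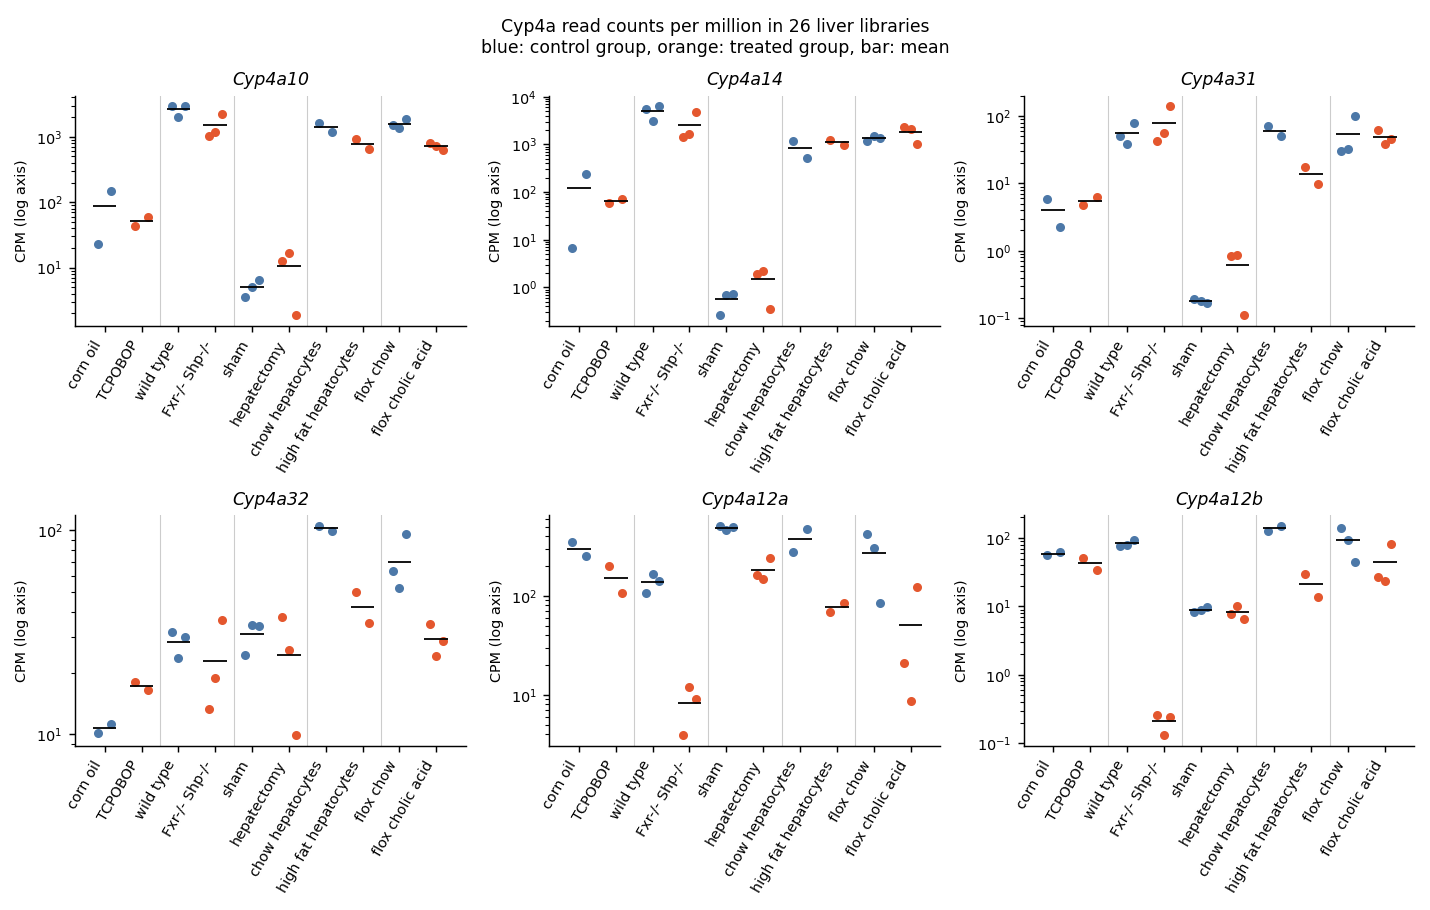
CPM (log axis) of each of the 6 Cyp4a genes, with 1 point per library, control groups in blue, treated groups in orange and a bar at the group mean. Cyp4a10, Cyp4a14 and Cyp4a31 are lowest in the 6 C3H/HeN libraries, while Cyp4a12a is highest on average in sham and Cyp4a12b is lowest in Fxr-/- Shp-/-.

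Summed by type, the reads of Cyp4a10, Cyp4a14, Cyp4a31 and Cyp4a32 outnumbered those of the Cyp4a12 pair in 18 of the 26 libraries. The log2 ratio of the PPAR alpha type to the Cyp4a12 pair was 5.54, 4.40 and 5.33 in wild type and 9.24, 7.90 and 9.60 in Fxr-/- Shp-/-. It was -4.18, -3.52 and -3.61 in sham and -1.69, -1.79 and -4.33 after hepatectomy. In hepatocytes it was 2.89 and 1.57 on chow and 4.51 and 4.09 on high fat diet, and in floxed mice 2.32, 2.90 and 4.71 on chow and 6.05, 6.48 and 3.10 on cholic acid. The knockout and high fat libraries lay above every control library of their own experiment, while the ranges of the hepatectomy and cholic acid experiments overlapped. All 6 genes together held 0.0222% of gene counts in the hepatectomy library with the fewest and 0.908% in the wild-type library with the most. In sham Cyp4a32 held 762, 1174 and 1006 of the 886, 1379 and 1223 reads of the PPAR alpha type. After hepatectomy Cyp4a32 held 1308, 886 and 363 of 1850, 1562 and 448. In wild type it held 623, 398 and 517 of 167690, 87620 and 162557. The sum and its ratio thus rested mostly on different genes in these experiments.

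**Figure D2:**
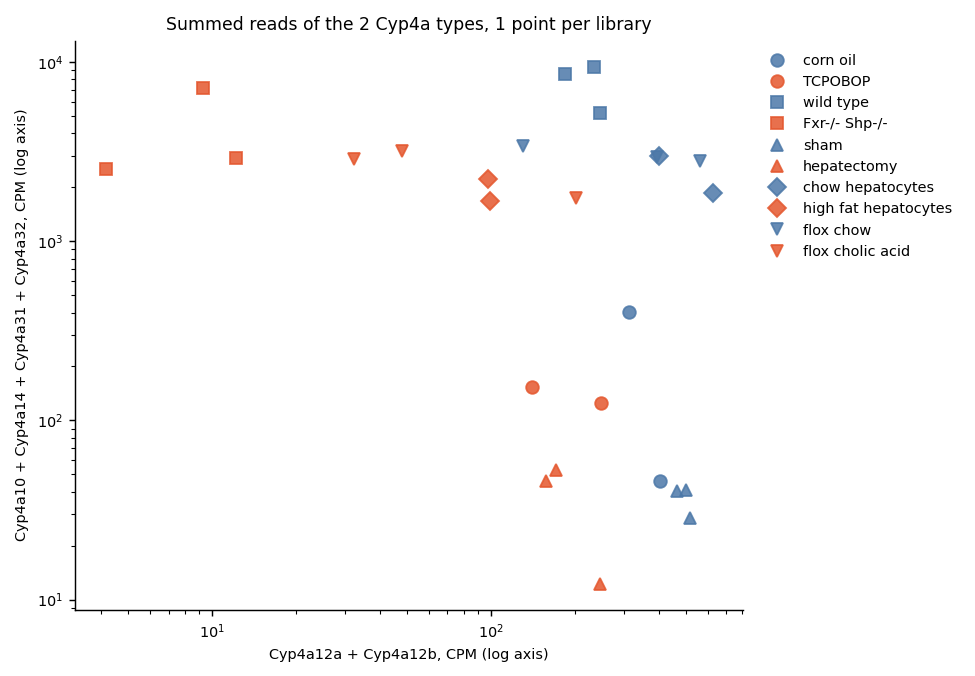
Summed CPM of Cyp4a10, Cyp4a14, Cyp4a31 and Cyp4a32 (vertical, log axis) against summed CPM of Cyp4a12a and Cyp4a12b (horizontal, log axis), with 1 point per library and 1 symbol per experiment (blue control, orange treated). Wild-type libraries sit at 5200 to 9442 CPM for the PPAR alpha type and knockout libraries move left to 4.17 to 12.2 CPM for the Cyp4a12 pair, while the 6 C3H/HeN libraries lie at the lower right.

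In the Fxr-/- Shp-/- libraries both Cyp4a12 transcripts were far lower than in wild type, and no PPAR alpha type member was called. Cyp4a12b stood at 77.3, 79.8 and 93.8 CPM in wild type and at 0.258, 0.131 and 0.245 CPM in the knockout, which is 6, 3 and 6 reads. Cyp4a12a stood at 107, 167 and 141 CPM in wild type and at 3.91, 12.1 and 9.02 CPM in the knockout. Every knockout library was below every wild-type library for both, and the share of all genes that separated in this way was not worked out. The log2 fold change was -8.57 ± 0.18 for Cyp4a12b (SE; adjusted p = 3.44e-08, edgeR) and -4.04 ± 0.35 for Cyp4a12a (adjusted p = 6.19e-05), so 2 of 6 genes fell and 0 rose. Over the 13473 genes tested 40.4% changed, 19.4% falling and 21% rising. Cyp4a12b held 42.0, 32.4 and 39.98% of the pair's reads in wild type and 6.19, 1.08 and 2.64% in the knockout. Alignments that were not unique made up 43.2 to 44.1% of all lines of the table in wild type and 25.5 to 26.9% in the knockout, and the part of that difference in the result was not tested.

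Cyp4a14 stood at 5548, 3157 and 6391 CPM in wild type and at 1425, 1669 and 4730 CPM in the knockout. The library labelled Fxr-/- Shp-/- 3 lay inside the wild-type range and the other two lay below it. Cyp4a10 showed the same arrangement, at 2951, 1982 and 2941 CPM against 1035, 1171 and 2269 CPM. The log2 fold changes were -0.93 ± 0.44 for Cyp4a14 (SE; adjusted p = 0.123, edgeR), -0.80 ± 0.29 for Cyp4a10 (adjusted p = 0.0536), 0.52 ± 0.42 for Cyp4a31 (adjusted p = 0.349) and -0.31 ± 0.31 for Cyp4a32 (adjusted p = 0.452). Cyp4a31 had 51.6, 38.0 and 79.7 CPM in wild type and 43.5, 56.0 and 141 CPM in the knockout, and Cyp4a32 had 31.9, 23.6 and 30.03 against 13.3, 18.8 and 36.2 CPM. These calls rested on that knockout library: without it Cyp4a10 fell by 1.22 (adjusted p = 0.000554), Cyp4a14 by 1.67 (0.000912) and Cyp4a32 by 0.80 (0.00494) on the log2 scale, and Cyp4a31 was at -0.15 in place of 0.52. Without a filter on low counts Cyp4a10 (adjusted p = 0.00851) and Cyp4a14 (0.0313) were also called, and without wild type 2 Cyp4a10 was at 0.0499.

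Around the knockout's Cyp4a genes, the male-biased genes fell together, and PPAR alpha targets were called at shares near those of all genes (21% rising and 19.4% falling). Of 43 PPAR alpha target genes, 12 rose and 8 fell, with a median log2 fold change of -0.029 against -0.007 over all genes. Cd36, a fatty acid transporter, went from 11.8 to 293 CPM, Acot3, a peroxisomal acyl-CoA thioesterase, from 4.05 to 19.04 CPM and Abcd2, a peroxisomal transporter, from 14.8 to 68.2 CPM. Leaving out wild type 1 or 3 or Fxr-/- Shp-/- 1 or 2 left 3 that fell, and leaving out Fxr-/- Shp-/- 3 gave 14. A list of Ppara and 11 other genes held other PPAR receptors, partner receptors, cofactors and the P450 reductase gene Por. On it Ppara fell by 0.98 ± 0.21 on the log2 scale (SE, with adjusted p = 0.00594, edgeR), from 93.4 to 47.0 CPM. Ncor1, a corepressor, fell by 0.46, and Pparg, the gene of another PPAR receptor, rose by 2.03.

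All 12 genes of the male-biased list fell in the knockout, with a median log2 fold change of -5.64. Slco1a1, an organic anion transporter, went from 264 to 0.171 CPM, Elovl3, a fatty acid elongase, from 144 to 0.247 CPM and Hsd3b5, a steroid dehydrogenase, from 7.78 to 0.0279 CPM. Of the female-biased list 18 of 19 genes tested rose and 0 fell. The sulfotransferase Sult2a1 went from 0.166 to 1180 CPM, Sult2a2 from 0 to 249 CPM and Cyp2b9 from 0.0787 to 306 CPM. Among growth hormone and androgen signalling genes 2 of 12 rose and 5 fell, with the feedback inhibitor Cish up by 1.58 and Bcl6, a repressor of female-biased genes, lowered from 47.0 to 8.93 CPM. Among hepatocyte markers 3 of 7 fell, and 6 of 8 stellate cell and 5 of 6 bile duct markers rose, with summed stellate markers at 183 to 302 CPM in wild type and 409 to 465 CPM in the knockout. None of these markers was at 0, and their part in the Cyp4a values was not tested.

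**Figure D3:**
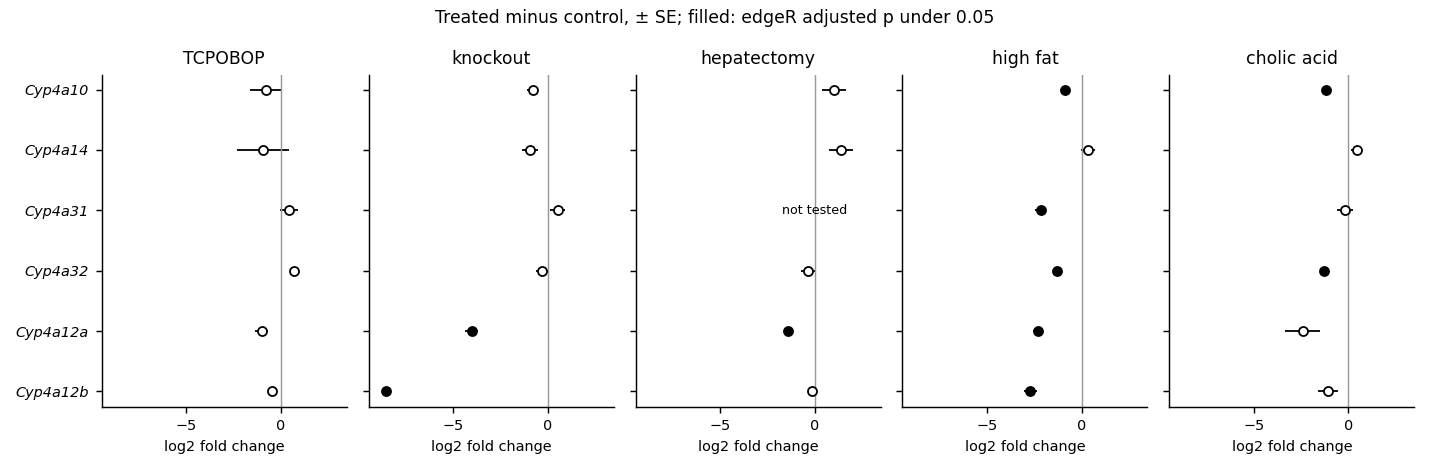
Log2 fold change of each of the 6 genes, treated minus control, in the 5 comparisons, with bars for ± SE and filled points where edgeR's adjusted p was under 0.05. Filled points lie to the left of 0 in every panel that has them, and the Cyp4a12 pair is farthest left in the knockout, at -4.04 and -8.57.

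Cholic acid in the floxed mice lowered Cyp4a10 and Cyp4a32 and left Cyp4a14 without a called change. Cyp4a10 stood at 1528, 1385 and 1872 CPM on chow and at 805, 711 and 633 CPM on cholic acid. Cyp4a32 stood at 62.8, 52.3 and 95.6 CPM on chow and at 34.7, 24.3 and 28.7 CPM on cholic acid. No cholic acid library reached the chow range for either gene, and how many of all genes separated like this was not worked out. The log2 fold changes were -1.17 ± 0.19 for Cyp4a10 (SE; adjusted p = 0.015, edgeR) and -1.27 ± 0.25 for Cyp4a32 (adjusted p = 0.0277). Thus 2 of 6 genes fell and 0 rose, where 4.77% of the 12577 genes tested changed, 2.5% falling and 2.27% rising. Cyp4a10 missed the threshold without cholic acid 2 (adjusted p = 0.0642), without cholic acid 3 (0.0683) and in a single fit over all 26 libraries (0.135), and Cyp4a32 missed it without floxed chow 1, cholic acid 1, 2 or 3 (0.06 to 0.109).

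Cyp4a14 had 1196, 1469 and 1337 CPM on chow and 2276, 2122 and 1034 CPM on cholic acid, so 2 of 3 treated libraries were above the chow range and the other was below it. Its log2 fold change was 0.43 ± 0.29 (SE; adjusted p = 0.412, edgeR). Its reads per Cyp4a10 read were 0.783, 1.06 and 0.714 on chow and 2.83, 2.99 and 1.63 on cholic acid, with no overlap between the groups. Cyp4a31 stood at 30.8, 32.6 and 99.8 CPM on chow and 61.7, 38.0 and 45.9 CPM on cholic acid (log2 fold change -0.18 ± 0.44, adjusted p = 0.846), and without floxed chow 3 it was at 0.60 (adjusted p = 0.102).

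The Cyp4a12 genes varied widely between libraries of both diets. Cyp4a12a had 421, 302 and 85.4 CPM on chow and 20.8, 8.64 and 121 CPM on cholic acid, a log2 fold change of -2.43 ± 0.94 (SE; adjusted p = 0.173, edgeR). Cyp4a12b had 141, 92.2 and 45.0 CPM on chow and 27.3, 23.8 and 81.0 CPM on cholic acid, a log2 fold change of -1.09 ± 0.54 (adjusted p = 0.275). The ranges overlapped for both because floxed chow 3 was low and cholic acid 3 was high. In the single fit over 26 libraries Cyp4a12a was called (adjusted p = 0.0117). Cyp4a12b made up 25.1, 23.4 and 34.6% of the pair's reads on chow and 56.8, 73.3 and 39.99% on cholic acid, without overlap.

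With cholic acid 12 of 43 PPAR alpha targets fell and 0 rose, with a median log2 fold change of -0.651 against 0.01 over all genes. Fabp1, the liver fatty acid binding protein gene, went from 3837 to 1156 CPM, Eci1, an enoyl-CoA isomerase, from 178 to 76.9 CPM and Vnn1, a pantetheinase, from 67.9 to 29.8 CPM. Leaving out a library other than floxed chow 3 gave 3 to 6 that fell, and without floxed chow 3 there were 18. DESeq2's Wald test called 21 and the single fit over 26 libraries 24. Ppara was at 64.1 CPM on chow and 51.6 CPM on cholic acid (log2 fold change -0.32 ± 0.39, adjusted p = 0.652), and its coactivator gene Ppargc1a rose by 1.08. Of the male-biased list 10 of 12 genes fell and 0 rose, with a median of -3.11. Selenbp2 went from 722 to 10.8 CPM, Hsd3b5 from 160 to 2.53 CPM and the glucuronosyltransferase gene Ugt2b38 from 22.3 to 0.745 CPM. The number that fell was 5 without floxed chow 2 or cholic acid 1 and 6 without floxed chow 1. Of the female-biased list 2 of 9 tested rose, Cux2 from 0.645 to 33.4 CPM and Prom1 from 0.564 to 14.8 CPM. Cux2, a female-biased repressor, is also on the growth hormone list, where Ghr, the growth hormone receptor gene, fell by 1.32 and Stat5b rose by 0.999. Among markers 1 hepatocyte gene fell and 1 macrophage and 1 stellate gene rose, and summed hepatocyte markers were at 101600 to 118500 CPM on chow and 100500 to 128700 CPM on cholic acid.

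High fat diet lowered 5 of the 6 genes in isolated hepatocytes and 0 rose, where 24% of the 13892 genes tested changed, 11.1% falling and 12.9% rising. The exception was Cyp4a14. Cyp4a12b stood at 127 and 151 CPM on chow and 29.3 and 13.7 CPM on high fat diet, a log2 fold change of -2.72 ± 0.35 (SE; adjusted p = 0.00756, edgeR). Cyp4a12a stood at 274 and 475 against 68.2 and 85.4 CPM, a log2 fold change of -2.31 ± 0.27 (adjusted p = 0.0064). Cyp4a31 stood at 70.9 and 50.6 against 17.8 and 9.94 CPM, a log2 fold change of -2.16 ± 0.30 (adjusted p = 0.00897). For all of them both high fat libraries lay below both chow libraries, which with 2 libraries each can also happen without a change. How many of all genes separated in this way was not worked out.

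Cyp4a32 stood at 105 and 99.4 CPM on chow and 49.6 and 35.0 CPM on high fat diet, a log2 fold change of -1.30 ± 0.17 (SE; adjusted p = 0.00769, edgeR). Cyp4a10 stood at 1612 and 1192 against 910 and 652 CPM, a log2 fold change of -0.87 ± 0.21 (adjusted p = 0.0337). It missed the threshold without chow 1 (adjusted p = 0.0597) and without high fat 2 (0.0784). Cyp4a14 stood at 1187 and 514 against 1250 and 987 CPM, with overlapping ranges and a log2 fold change of 0.36 ± 0.37 (adjusted p = 0.506). The chow libraries decided that value: it was 1.09 (adjusted p = 0.00768) without chow 1 and -0.12 (0.627) without chow 2. Cyp4a14 reads per Cyp4a10 read were 0.737 and 0.431 on chow and 1.37 and 1.51 on high fat diet. A single fit over 26 libraries called 2 of the 6, with adjusted p of 0.472 for Cyp4a10, 0.0606 for Cyp4a32 and 0.07 for Cyp4a12a.

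Among 43 PPAR alpha targets 7 rose and 4 fell with high fat diet, shares near the 12.9% and 11.1% of all genes, and the median log2 fold change was 0.01 against 0.009 over all genes. Cd36 went from 8.10 to 175 CPM, Abcd2 from 4.09 to 49.4 CPM and the thioesterase gene Acot2 from 4.75 to 16.8 CPM, while Fabp1 fell by 0.41 and Angptl4, an inhibitor of lipoprotein lipase, by 0.79 on the log2 scale. The number that rose was 4 without high fat 1, and leaving out any of the 4 libraries left 2 that fell. Ppara was at 225 CPM on chow and 204 CPM on high fat diet (log2 fold change -0.17 ± 0.08, SE; adjusted p = 0.18, edgeR), the coactivator gene Ppargc1b fell by 1.30 and Pparg rose by 1.02. Of the male-biased list 11 of 12 genes fell and 0 rose, with a median of -2.44. Selenbp2 went from 1213 to 43.1 CPM, Ugt2b38 from 28.8 to 1.51 CPM and Hsd3b5 from 252 to 13.3 CPM. Of the female-biased list 6 of 11 tested rose and 2 fell, with Cyp2b9 at 0.592 and 195 CPM, Cyp2a4 at 0.437 and 5.07 CPM, and Cyp2c40 falling from 4.55 to 0.114 CPM. The number that fell was 1 without high fat 1. On the growth hormone and androgen list Hnf4a, a liver transcription factor gene, fell by 0.68. Markers of other cells moved with the diet: 6 of 6 endothelial, 6 of 7 tested stellate and 5 of 8 macrophage markers rose. Their summed levels were 49.4 to 54.4 CPM on chow against 123 to 124 CPM for endothelial, 10.4 to 17.2 against 42.2 to 45.7 CPM for stellate and 42.4 to 44.0 against 73.6 to 82.1 CPM for macrophage markers. Of 7 hepatocyte markers tested 2 fell and 0 rose, with a median log2 fold change of -0.279. Their summed level was 100600 to 102400 CPM on chow and 100600 to 102000 CPM on high fat diet.

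**Figure D4:**
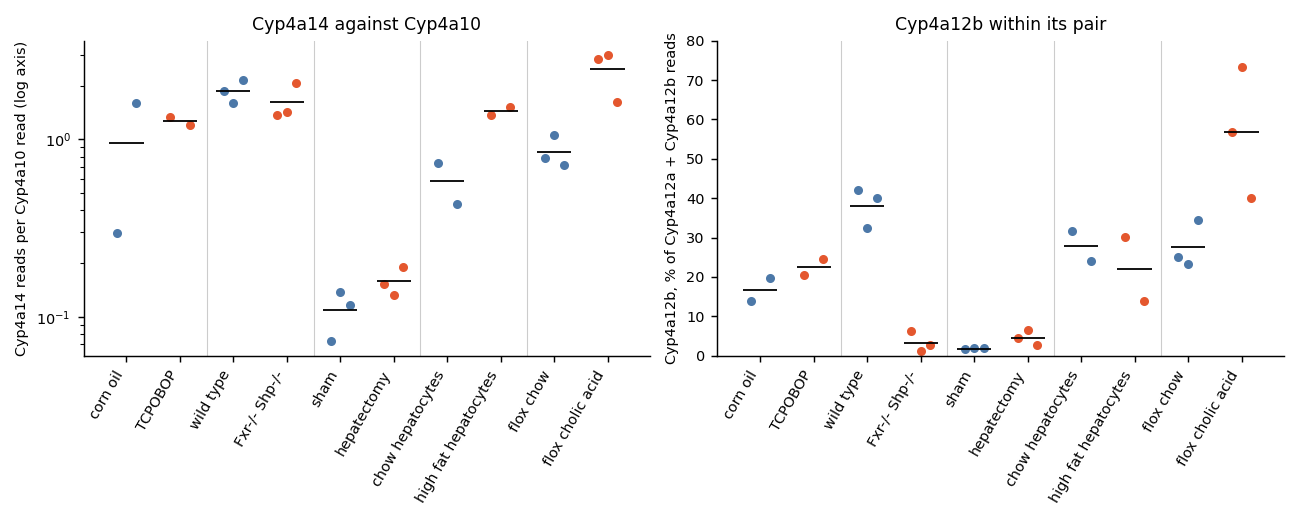
Left, Cyp4a14 reads per Cyp4a10 read (log axis), and right, Cyp4a12b as a percentage of the reads of the Cyp4a12 pair, with 1 point per library, blue for control, orange for treated and a bar at the group mean. Cyp4a14 per Cyp4a10 was 0.0727 to 0.191 in the 6 C3H/HeN libraries and highest on average with cholic acid, and the Cyp4a12b share was 1.08 to 6.44% in the Fxr-/- Shp-/- and C3H/HeN libraries.

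After partial hepatectomy Cyp4a12a fell in C3H/HeN liver and Cyp4a12b did not pass the test. The sham livers are labelled 0 hour, so resection and the 48 hours since surgery cannot be told apart. Cyp4a12a stood at 509, 458 and 494 CPM in sham and at 164, 148 and 240 CPM after hepatectomy, with no overlap between the groups. How many of all genes had groups without overlap was not worked out. Its log2 fold change was -1.41 ± 0.17 (SE; adjusted p = 0.000782, edgeR), and 1 of 5 Cyp4a genes tested fell and 0 rose. Over the 13753 genes tested 30.7% changed, 14.3% falling and 16.4% rising. In the single fit over 26 libraries its adjusted p was 0.121. Cyp4a12b had 8.40, 8.79 and 9.65 CPM in sham and 7.72, 10.2 and 6.59 CPM after hepatectomy, a log2 fold change of -0.14 ± 0.17 (adjusted p = 0.578). Its share of the pair's reads was 1.62, 1.88 and 1.92% in sham and 4.50, 6.44 and 2.67% after hepatectomy. These reads were counted on a genome of another strain, and what that did to the share was not tested.

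Cyp4a10, Cyp4a14 and Cyp4a31 were low in both groups of that experiment, while the group means of Cyp4a32 were within the range of the other whole-liver groups. Cyp4a10 had 3.55, 5.14 and 6.39 CPM in sham and 12.8, 16.6 and 1.86 CPM after hepatectomy (log2 fold change 1.04 ± 0.64, SE; adjusted p = 0.251, edgeR). Cyp4a14 had 0.258, 0.705 and 0.740 CPM in sham and 1.95, 2.22 and 0.355 CPM after hepatectomy (1.39 ± 0.65, adjusted p = 0.144). Cyp4a31 was under the count filter and not tested, with 6, 6 and 5 reads in sham and 29, 30 and 4 after hepatectomy. Cyp4a32 had 24.6, 34.5 and 33.8 CPM against 37.5, 25.9 and 9.92 CPM (-0.35 ± 0.40, adjusted p = 0.547). The library labelled hepatectomy 3 was the lowest of its group for Cyp4a10, Cyp4a14, Cyp4a31 and Cyp4a32 and the highest for Cyp4a12a. Without it 3 genes were called raised, among them Cyp4a10 at 1.54 (adjusted p = 0.00209) and Cyp4a14 at 1.86 (0.00895), and Cyp4a32 was at 0.03.

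Of 43 PPAR alpha targets 20 fell and 0 rose after hepatectomy, with a median log2 fold change of -0.364 against 0.014 over all genes. Acot3 went from 9.71 to 2.65 CPM, Angptl4 from 89.8 to 31.0 CPM and Decr2, a peroxisomal reductase, from 210 to 90.1 CPM. The single fit over 26 libraries called 13 that fell. Ppargc1a fell from 62.9 to 18.9 CPM, Por, the reductase that passes electrons to P450 enzymes, from 886 to 418 CPM and Rxrb, a partner receptor of PPAR alpha, from 30.6 to 21.4 CPM. Of the male-biased list 6 of 12 fell and 2 rose, with Elovl3 up from 44.2 to 107 CPM, Selenbp2 down from 170.5 to 85.7 CPM and Mup20, a major urinary protein gene, down from 505 to 259 CPM. In the single fit over 26 libraries 1 fell and 1 rose, and without sham 2 or sham 3 0 rose. Of the female-biased list 5 of 11 tested fell, with Cyp2c40 from 13.2 to 0.397 CPM and Cux2 from 6.78 to 0.542 CPM. Cyp2a4 was called lowered too, at 3.52 and 0.589 CPM, with overlapping groups. Ghr fell by 0.77 and Igf1 by 0.51 on the log2 scale. Of 7 hepatocyte markers 1 rose and 3 fell, and their summed level was 127700 to 133000 CPM in sham and 99840 to 112100 CPM after hepatectomy. Of the markers of other cells 2 of 8 stellate, 1 of 8 macrophage and 1 of 5 tested bile duct markers rose and 1 of 6 endothelial markers fell. Those shares are near the 16.4% rising and 14.3% falling over all genes. The part of these markers in the Cyp4a values was not tested.

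With TCPOBOP 0 of the 6 genes were called in either direction by edgeR or by DESeq2's Wald test, and edgeR called 0% of the 12785 genes tested. At an unadjusted p under 0.05 stood 751 of all genes (5.87%), and of these 6 Cyp4a32 and Cyp4a12a. DESeq2's Wald test called 58 genes raised and 44 lowered. Because the library labelled corn oil 1 goes against its label, no direction is drawn. In order of their numbers, Cyp4a14 had 6.84 and 239 CPM under the corn oil label and 58.7 and 71.2 CPM under TCPOBOP, and Cyp4a10 had 22.9 and 150 CPM against 43.7 and 59.0 CPM. For both genes the TCPOBOP libraries lay between the libraries labelled corn oil.

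Leaving out the library labelled corn oil 1 gave a log2 fold change of -1.56 for Cyp4a10 (adjusted p = 0.00147, edgeR) and -1.90 for Cyp4a14 (0.000316). Leaving out the other gave 1.16 (adjusted p = 0.0224) and 3.25 (0.000419). In both fits the remaining control library was assumed to vary like the treated ones. Cyp4a31 stood at 5.90 and 2.26 CPM against 4.77 and 6.34 CPM, and Cyp4a32 at 10.2 and 11.3 against 18.2 and 16.5 CPM (log2 fold change 0.68 ± 0.16, SE; adjusted p = 0.812). Cyp4a12a stood at 349 and 251 against 198 and 106 CPM (-0.995 ± 0.34, adjusted p = 0.835) and Cyp4a12b at 55.8 and 61.5 against 51.2 and 34.6 CPM (-0.47 ± 0.21, adjusted p = 0.874). The libraries of the 2 labels did not overlap for 3 of the 6 genes, the Cyp4a12 pair and Cyp4a32. With 2 libraries each, genes without a change can separate too. The share of all genes that separated was not worked out. Of 42 PPAR alpha targets tested edgeR called 0, as it did over all 12785 genes tested. Of the male-biased list edgeR called 0 of 12 and DESeq2's Wald test 3, all lowered.

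**Figure D5:**
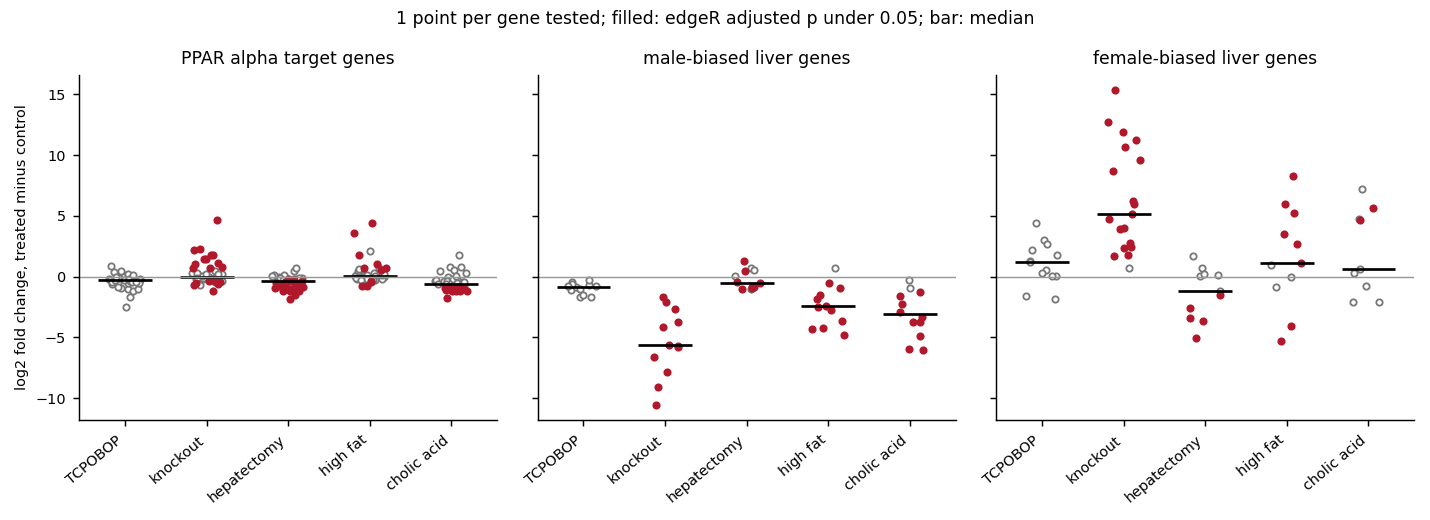
Log2 fold change of every tested gene of the PPAR alpha target, male-biased and female-biased lists in the 5 comparisons, with filled points where edgeR's adjusted p was under 0.05 and a bar at the list median. The male-biased median is -5.64 in the knockout, -2.44 on high fat diet and -3.11 with cholic acid, and the topmost point is Sult2a2, whose fitted value depends on the prior count because wild type had 0 reads.

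Differences between the effects were tested directly for the 4 experiments other than TCPOBOP, as the log2 fold change in one minus that in another. The log2 fold change of Cyp4a12b was lower in the knockout than after hepatectomy (difference -8.42 ± 0.29, SE; adjusted p = 1.55e-09, edgeR), on high fat diet (-5.86 ± 0.51, adjusted p = 4.58e-05) and on cholic acid (-7.47 ± 0.82, adjusted p = 0.000132). Of those 3 other effects on Cyp4a12b the high fat effect alone was called. For Cyp4a12a the knockout's fall exceeded that after hepatectomy (-2.62 ± 0.42, adjusted p = 0.000464) and on high fat diet (-1.72 ± 0.51, adjusted p = 0.0419), and the difference from cholic acid was -1.60 ± 1.10 (adjusted p = 0.37). In the single fit over 26 libraries the adjusted p against high fat diet was 0.312. Over all genes 31.5% differed between knockout and hepatectomy, 16.1% between knockout and high fat diet and 13.9% between knockout and cholic acid.

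Among the PPAR alpha type genes the effect on Cyp4a31 was higher in the knockout than on high fat diet by 2.69 ± 0.66 (SE; adjusted p = 0.0204, edgeR). Its differences from hepatectomy are not used, because the gene was under the count filter in that experiment. Cyp4a12b also differed between hepatectomy and high fat diet, by 2.56 ± 0.39 (adjusted p = 0.0012), where 29.2% of all genes did. For Cyp4a14 and Cyp4a10 0 of 6 differences were called each, and 2 each had an unadjusted p under 0.05. The nearest was Cyp4a14 between knockout and hepatectomy at -2.30 ± 0.88 (adjusted p = 0.0636), which passed without a filter on low counts (0.00852). Between hepatectomy and cholic acid 0 of the 5 genes used were called, where 13% of all genes were, and between high fat diet and cholic acid 0 of 6, where 6.43% of all genes were. At an unadjusted p under 0.05 stood Cyp4a10 in the former (2.22 ± 0.73) and Cyp4a31 in the latter (-1.97 ± 0.69), and both passed without a filter on low counts (adjusted p = 0.014 and 0.0333).

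Of the other Cyp4 genes, which include the Cyp4f family of long-chain fatty acid and eicosanoid hydroxylases, 0 to 2 rose and 0 to 3 fell in any comparison. In the knockout 2 of 9 tested rose and 2 fell, shares near the 21% and 19.4% of all genes, with Cyp4f16 at 1.06 and 3.84 CPM and Cyp4f13 falling from 69.7 to 41.2 CPM. Cyp4v3 fell from 462 to 310 CPM in the knockout and from 527 to 268 CPM on cholic acid. Cyp4f14, a leukotriene hydroxylase, fell from 197 to 74.1 CPM on cholic acid (log2 fold change -1.42 ± 0.19, SE; adjusted p = 0.00926, edgeR). On high fat diet, where 12.9% of all genes rose and 11.1% fell, 2 of 7 rose and 1 fell, with Cyp4b1 up from 2.26 to 6.47 CPM, Cyp4f15 up from 199.6 to 288 CPM and Cyp4f13 down from 97.3 to 62.1 CPM. After hepatectomy, where 16.4% of all genes rose and 14.3% fell, 1 of 7 rose and 3 fell, with Cyp4f16 up from 2.21 to 4.86 CPM, Cyp4b1 down from 13.9 to 5.92 CPM and Cyp4f13 down from 62.3 to 36 CPM.

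The genes whose levels were most like the summed reads of each type were taken from 11346 genes by Pearson's r of log2(CPM + 1) over the 26 libraries. The libraries share experiment, strain and feeding, so r is a description and carries no p. For the PPAR alpha type the nearest were Atxn10 (r = 0.951), Crat (0.935), Ei24 (0.933), Retsat (0.928) and Nfkbia (0.919). Crat and Retsat are on the PPAR alpha target list. After subtracting the control mean of each experiment they were Serinc2 (0.77), Kansl3 (0.746), Mrpl9 (0.733), Acadl (0.729) and Rab3ip (0.724), and Acadl is on that list too. For the Cyp4a12 pair the nearest by level were Mup21 (0.944), Slco1a1 (0.944), Ces3b (0.903), Cyp2d9 (0.892) and Casd1 (0.89). After the subtraction they were Mup21 (0.939), Mup12 (0.936), Slco1a1 (0.925), Mug1 (0.92) and Pdilt (0.914). Slco1a1 and Cyp2d9 are on the male-biased list, and the Mup genes are near-identical copies whose reads may be shared.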

How the data were processed

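The authors deposited a table of raw read counts per gene for the 26 libraries. RNA came from flash-frozen tissue or hepatocytes and libraries from a stranded mRNA kit, per the labels' protocols. Per the submitters' processing notes, bcl2fastq 2.17.1.14, Trimmomatic, STAR 2.4.2a, Picard 1.119, HTSeq and mouse genome GRCm38 (mm10) were used. The annotation release, read length and use of strand are not given in the sources used here, so genes overlapping on opposite strands are uncertain. The 5 summary lines for unassigned reads were left out of library sizes and tests, and alignments that were not unique, 16.6 to 44.1% of all lines summed per library, are among them. Symbols matched 47224 of 47643 identifiers.

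Each treated group was fitted against its own control with edgeR 4.0.16 (R 4.3.3, limma 3.58.1): filterByExpr (a count of 10, a total of 15), TMM and the quasi-likelihood F test, with Benjamini-Hochberg adjustment over all genes tested and a threshold of 0.05. SE is the absolute log2 fold change over the square root of F. Differences between effects were tested for 6 pairs of experiments. CPM are scaled by TMM over all 26 libraries. The procedure was tested on simulated data. Alternatives were DESeq2 1.42.0 (size factors, Wald test), no filter, a single fit over all 26 libraries, the replicate number as a block and leaving out each library in turn. Named list genes are the 3 with the largest absolute change among those called with an average log2 CPM of at least 1; Ppara in the diet comparisons and Fabp1 and Angptl4 on high fat diet were added after their values were seen, and some genes that the rule names are not reported here. The members, lists and tests were chosen with earlier results of these data known. Sequences and positions are from GENCODE M21.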

Additional observations from a re-analysis of the deposited data

How the results depend on the processing

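The labels link same-numbered libraries of a comparison only by a number in the titles. Correlations of their deviations from the group means over genes were -0.159 to 0.116, with 0.099, 0.116 and 0.087 in the cholic acid experiment. With 2 libraries per group the 2 correlations are equal by construction. These values do not settle whether libraries were paired. A replicate block made 4 genes fall in the knockout in place of 2, adding Cyp4a10 and Cyp4a14; Cyp4a14 with TCPOBOP was at 0.57 and Cyp4a31 with cholic acid at 0.0253. Without a filter on low counts 4 fell in the knockout. A single fit over all 26 libraries called 0 lowered after hepatectomy in place of 1 and 2 on high fat diet in place of 5, and put the Cyp4a32 difference between high fat diet and cholic acid at 0.0013 in place of -0.0099. The cause of these changes was not tested.

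Leaving out 1 library at a time gave 0 to 2 genes raised and 0 to 2 lowered with TCPOBOP, 2 to 5 lowered in the knockout, 0 to 3 raised after hepatectomy, 0 to 1 raised and 4 to 5 lowered on high fat diet and 0 to 2 lowered with cholic acid. The log2 fold change ranged over these fits from -1.56 to 1.16 for Cyp4a10, -1.90 to 3.25 for Cyp4a14 and -0.085 to 1.27 for Cyp4a31 with TCPOBOP, from -0.15 to 0.84 for Cyp4a31 in the knockout, from -0.80 to 0.0271 for Cyp4a32 after hepatectomy, from -0.12 to 1.09 for Cyp4a14 on high fat diet and from -0.45 to 0.60 for Cyp4a31 with cholic acid. Where 1 library was left in a group it was assumed to vary like the other group. DESeq2 size factors and DESeq2's Wald test changed no call among the 6 genes. Both Cyp4a12 genes in the knockout and Cyp4a31 and Cyp4a12b on high fat diet kept their direction and call under each alternative run. Depth limits Cyp4a14 and Cyp4a31 in C3H/HeN liver and Cyp4a12b in the knockout, where single libraries held 3 to 76 reads.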

Other observations

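The gene table also holds Cyp4a rows outside the 6 genes, with at most 37 reads in a library. The pseudogene Cyp4a30-ps, which lies between Cyp4a12a and Cyp4a12b at chr4:115343788-115363115 on the plus strand of GRCm38, had 37, 12 and 34 reads in sham and 4, 8 and 20 reads after hepatectomy, and 0 reads in each of the 20 C57BL/6J libraries. Cyp4a30b had 4, 5 and 0 reads in sham and 0, 0 and 1 after hepatectomy, and 1 read in a chow hepatocyte library. Strain, experiment and surgery cannot be told apart here, and reads of C3H/HeN mice were counted on a genome of another strain. These rows were looked at after their values were seen.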
